A study of Homo sapiens with 14 samples.

Results

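The windows described here are the 4000 bp before the 5' ends of protein-coding genes in HEK293T cells, kept where no other annotated gene of any type or strand overlaps them. Of 20345 protein-coding rows in the deposited tables, 9808 have such an isolated window. The windows followed below were selected on their own readout, as those whose upstream value averaged at least 0.2 FPM over 6 libraries. FPM is the fragment count scaled to a library of 1000000 fragments. This gave 563 windows, while 9245 isolated windows lay below the level and 5736 of these held no upstream fragment in any library. A further 2856 coding genes reached the level but have another gene in the window. Just inside the level were KIF2C, a mitotic kinesin, and RFX1, a transcription factor, with 24 fragments each over the 6 libraries. Just outside it were H1F0, a linker histone, with 22 fragments, and EIF4EBP2, a repressor of translation initiation, with 20.

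Most human promoters are transcribed in both directions. The polymerase that leaves against the gene makes an upstream antisense RNA, also called a promoter upstream transcript, which usually ends early and is rapidly degraded by the nuclear exosome. Such RNA is hard to see in total RNA and is seen better where newly made RNA is marked. Guanine-rich promoters can fold into G-quadruplexes, stacked squares of guanines held together by hydrogen bonds.

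In the AMUC-seq experiment, cells were given 4-thiouridine (s4U) and the s4U in their RNA was turned by acrylonitrile into a base that is read as C, so that new RNA carries T-to-C mismatches. HEK293T is an immortalized line of human embryonic kidney origin. All groups received 500 µM s4U for 1 h. They differed in PDP, an analogue of the G-quadruplex ligand pyridostatin, which was added 20 min before s4U at 0, 4 or 8 µM. There were 2 libraries per dose, the groups PDP-0, PDP-4 and PDP-8, and PDP-0 received none. The libraries were made from polyadenylated, bulk RNA, in which fewer transcribing cells and fewer molecules per cell cannot be told apart. The labels do not say whether the 2 libraries of a dose are separate cultures, and a p-value here rests on a spread that may be technical. The line itself was not checked against markers.

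Depth moved with the drug. The PDP-0 libraries held 9770956 and 10564894 fragments, the PDP-4 libraries 22191913 and 22326477, and the PDP-8 libraries 22363992 and 18373693. The share of fragments inside genes also moved, from 82.6% and 83.0% without PDP to a range of 86.5% to 89.7% with it. Hence depth, genic share and PDP cannot be told apart when 4 or 8 µM is set against 0 µM, while 8 and 4 µM are alike in depth. A median window held 3 fragments in each PDP-0 library and 9 to 11 with PDP, and 57 of the 563 windows were empty in each PDP-0 library.

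Because PDP binds G-quadruplexes, the windows were searched for the motif of 4 runs of at least 3 G with loops of 1 to 7 bases, on both strands and without overlaps. A match of at most 30 bases, the nearest to the gene, is shown for 8 windows, namely the 6 of the 10 largest rises at 8 µM that held one and the 2 largest falls. The letters come from the GRCh37 genome, the motif is in capitals with 20 bases on either side, fewer where the gene start was reached, and each line reads 5' to 3' on the strand of the motif.
ZMYM2 (chr13:20532581-20532645, plus strand, 184 bases before the gene): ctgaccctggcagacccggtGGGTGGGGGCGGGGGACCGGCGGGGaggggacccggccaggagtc
WDR38 (chr9:127615424-127615485, plus strand, 289 bases before the gene): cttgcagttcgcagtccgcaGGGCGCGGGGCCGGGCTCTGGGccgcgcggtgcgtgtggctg
MXD4 (chr4:2264322-2264382, plus strand, opposite to the gene, 320 bases before it): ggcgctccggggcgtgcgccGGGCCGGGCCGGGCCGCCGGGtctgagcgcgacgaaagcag
SREBF1 (chr17:17743598-17743661, plus strand, opposite to the gene, 3292 bases before it): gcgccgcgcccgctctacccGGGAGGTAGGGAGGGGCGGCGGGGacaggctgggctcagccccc
C19orf35 (chr19:2282596-2282660, minus strand, 434 bases before the gene): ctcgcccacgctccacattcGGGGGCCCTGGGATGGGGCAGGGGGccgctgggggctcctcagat
TRIO (chr5:14143243-14143307, minus strand, opposite to the gene, 523 bases before it): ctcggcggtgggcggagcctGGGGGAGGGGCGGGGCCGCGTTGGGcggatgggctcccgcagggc
REEP3 (chr10:65281071-65281122, plus strand, 11 bases before the gene): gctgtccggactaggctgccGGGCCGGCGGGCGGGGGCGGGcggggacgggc
NAT8L (chr4:2061152-2061221, minus strand, opposite to the gene, 37 bases before it): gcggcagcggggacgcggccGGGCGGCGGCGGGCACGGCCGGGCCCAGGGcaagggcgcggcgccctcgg

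The motif was common in the windows whichever way they moved. At least 1 match lay in 428 of the 563 windows (76.0%) and in 53.0% of all 9808 isolated windows. The share was 56.7% in the 5259 isolated windows below the level whose gene had at least 1 FPM in total. A match lay in 66 of the 90 windows called higher at 8 µM and in 13 of the 14 called lower. In the last 1000 bp before the gene the shares were 65.9% of the 563 windows, 37.2% of all isolated windows and 42.7% of the 5259. The windows were also richer in G and C, with a median of 50.5% against 46.0% in the same 5259. A match is a run of letters and does not show that a structure forms.

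The strand and the labeling behind the upstream value were read from the data, in windows that were not isolated. In 78 windows exactly 1 other gene lies whole inside and has at least 5 FPM, so the value could be set against that gene's own counts. Where the inside gene is on the strand opposite to the window's gene (n = 53), the upstream value had a median of 0.861 of the inside gene's T-to-C-marked fragments and 0.125 of its total fragments. It came within 10% of the marked count in 21 of them. Where the inside gene is on the same strand (n = 25), the median was 0.00172 of the marked fragments. RMRP, the RNA of RNase MRP, lies in the window of CCDC107 and had 205, 212, 421, 373, 485 and 451 marked fragments in the 6 libraries, while the upstream counts of CCDC107 were 205, 212, 421, 373, 486 and 451. In most of these windows the upstream value thus followed marked fragments on the opposite strand, which in an isolated window is labeled antisense RNA outside annotated genes. It did not in all of them. In 13 of the 53 it was under 0.5 of the marked count and in 3 it was over it by more than 10%, up to a ratio of 1.59 for AC005003.1 in the window of PATZ1. DPM3 and EIF5AP4, with 10 to 29 and 6 to 22 marked fragments per library, lay in windows whose upstream count was 0 in all 6 libraries, and ADM in one with a ratio of 0.0232. Unlabeled fragments of these windows were not analysed here, so a change in marked fragments cannot be split into RNA amount and share of label.

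**Figure D1:**
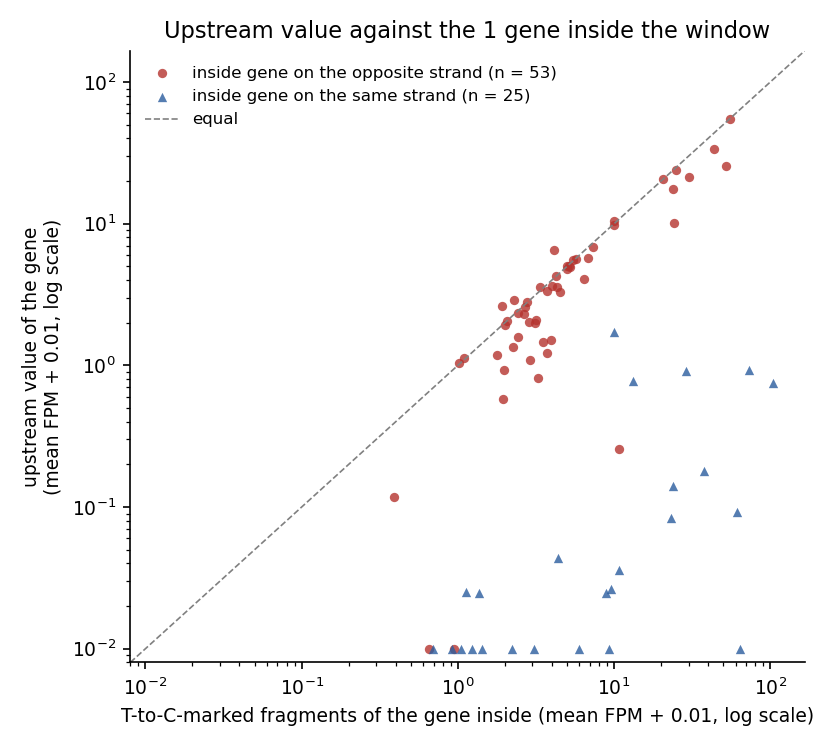
Upstream value of a gene (y axis, mean FPM over 6 libraries plus 0.01, log scale) against the T-to-C-marked fragments of the 1 gene inside its window (x axis, same unit), for 53 inside genes on the opposite strand and 25 on the same strand. Opposite-strand points lie mostly near or under the dashed line of equality, with a median ratio of 0.861 and 2 at an upstream value of 0, and same-strand points lie far below it.

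The isolation holds for GENCODE v19, the annotation of the tables. In the newer GENCODE v44 mapped to the same genome, 171 of the 563 windows (30.4%) hold an opposite-strand exon and 203 an upstream exon of their own gene, against 9.72% and 25.3% of the 5259 expressed isolated windows below the level. The windows lie on 23 chromosomes, 275 before plus-strand and 288 before minus-strand genes. Chromosome 1 holds 60 of them and chromosome 9 holds 44. Their genes were well expressed, with a median of 57.9 FPM in total against 21.8 FPM for the 5259.

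The windows themselves were low and uneven. The median was 0.389 FPM over the 6 libraries, 80 windows reached 1 FPM and the 10 highest carried 15.3% of the sum. ING5, a subunit of histone acetyltransferase complexes, was highest at 11.5 FPM.

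The summed signal of the windows rose with dose. The 563 windows together held 334 and 319 FPM in the PDP-0 libraries, 375 and 384 FPM at 4 µM, and 435 and 454 FPM at 8 µM. The libraries of the 3 doses did not overlap, and the sum at 8 µM was 1.36 times that at 0 µM. Since a window that is high only with PDP reaches the level through those libraries, the sum was also taken over all 9808 isolated windows, in which the level plays no part. It was 414 ± 7.7 FPM at 0 µM, 540 ± 4.9 FPM at 4 µM and 662 ± 15 FPM at 8 µM (SD, n = 2 each). The rise with dose had p = 0.0222 in a two-sided exact permutation test of the slope over 90 arrangements of the 6 libraries, the smallest p they can give. Within it, the 9245 windows below the level went from 87.6 ± 2.6 to 217 ± 2.1 FPM between 0 and 8 µM.

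The 2856 coding windows at the level that hold other genes went the other way, from 5530 ± 8.9 FPM at 0 µM to 4313 ± 68 FPM at 4 µM and 4167 ± 188 FPM at 8 µM. In those windows the upstream value includes marked RNA of the other genes. The marked RNA of the 563 genes themselves also fell, from 12838 ± 46 to 10210 ± 220 and 9249 ± 263 FPM. For every 100 marked fragments of these genes, the windows held 2.54 ± 0.089 fragments at 0 µM, 3.72 ± 0.14 at 4 µM and 4.81 ± 0.0023 at 8 µM. The marked share of the fragments of all genes moved with dose too. It was 17.2% in both libraries at 0 µM, 13.8% and 13.5% at 4 µM, and 12.5% and 13.2% at 8 µM. Marked RNA at 8 µM was 0.720 times that at 0 µM in the 563 genes and 0.756 times in the 2856. Hence this share, depth and PDP cannot be told apart in the marked values.

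**Figure D2:**
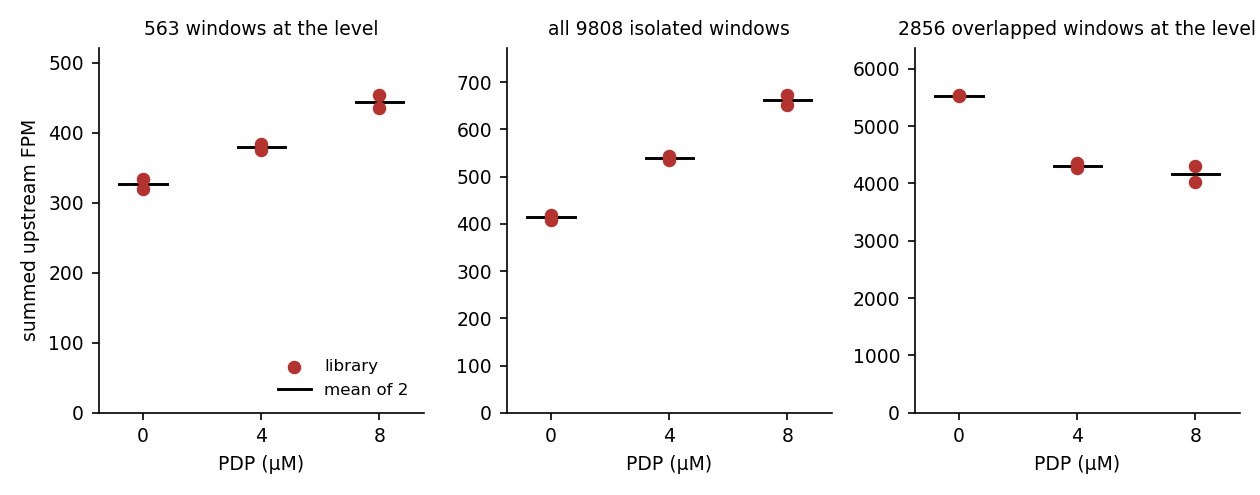
Summed upstream FPM (y axis, from 0) at 0, 4 and 8 µM PDP (x axis) for the 563 isolated windows at the level, all 9808 isolated windows and the 2856 coding windows at the level that hold another gene. Points are libraries and bars the mean of 2. The isolated sums rise from 327 to 445 FPM and from 414 to 662 FPM, and the overlapped sum falls from 5530 to 4167 FPM.

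Window by window, edgeR's quasi-likelihood test was fitted on all 6214 rows of any gene type at the level, and a window was called at a Benjamini-Hochberg adjusted p under 0.05. At 4 against 0 µM, 38 of the 563 windows (6.75%) were called higher, where 2.75% of all rows were, and 6 (1.07%) lower, where 12.4% of all rows were. At 8 against 0 µM, 90 windows (16.0%) were called higher against 6.16% of all rows, and 14 (2.49%) lower against 16.4% of all rows. The median log2 fold change of the windows was 0.44 at 4 µM and 0.68 at 8 µM, where it stayed at 0.68 with the 10 windows that were empty at 0 µM set at their lower bound, and that of all rows was -0.13 and -0.14. Of the windows called higher, 35 were called at both doses, and 5 were called lower at both. These doses share their control libraries.

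The level shaped these counts. Of the 90 windows called higher, 55 were under 0.2 FPM at 0 µM and had to be higher with PDP to be included. Among the 373 windows that reached 0.2 FPM at 0 µM by themselves, which favors windows high in those libraries, 35 were called higher and 14 lower, with a median log2 fold change of 0.15. Among the 80 windows with at least 1 FPM on average, 16 were called higher and 8 lower, with a median of -0.08.

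At 8 against 4 µM, where depth was alike, the median log2 fold change was 0.25 and 396 of the 563 windows had a value above 0. Of all 6214 rows, 3099 were above 0, with a median of -0.0015. The median was 0.17 in the windows that reached 0.2 FPM at 0 µM by themselves and 0.46 in the others. Only 5 windows were called higher (0.274% of all rows were) and 1 lower (0.129% of all rows were). At an unadjusted p under 0.05 in edgeR there were 72 and 12, for which no share of all rows is given here. The windows called higher were those of AC017104.2, FAM69B, ING5, PPM1M and WDR38. The one called lower was that of SCT, the gene of the hormone secretin. DESeq2 called none of them, and called 29 windows higher and 1 lower at 8 against 0 µM. No share of all rows is given here for DESeq2 either.

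**Figure D3:**
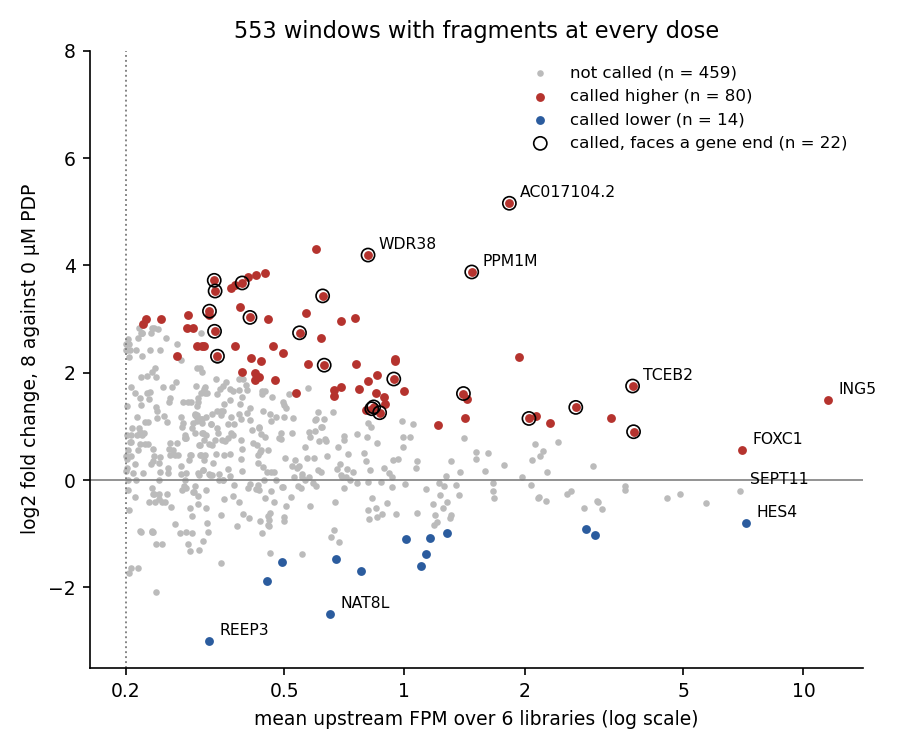
Log2 fold change of upstream fragments at 8 against 0 µM PDP (y axis, edgeR) against mean upstream FPM over 6 libraries (x axis, log scale) for the 553 windows with fragments at every dose. Red and blue points passed an adjusted p under 0.05, 80 higher and 14 lower, circles mark called windows that face the end of an opposite-strand gene, and the dotted line is the level of 0.2 FPM. Rises spread over all levels with the largest folds at low levels.

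The windows of highest level split into those that moved and those that did not pass. That of ING5 held 6.04 and 5.87 FPM at 0 µM, 11.7 FPM in both libraries at 4 µM, and 14.9 and 18.8 FPM at 8 µM. The doses did not overlap, and the log2 fold change was 1.49 ± 0.16 (SE) at 8 against 0 µM (edgeR adjusted p = 8.68e-19) and 0.52 ± 0.12 at 8 against 4 µM (adjusted p = 0.00939). ING5 itself had 60.7 and 60.0 FPM of total RNA at 0 µM and 70.7 and 66.7 FPM at 8 µM, and its marked RNA was 16.3 and 15.5 FPM without PDP and 12.2 and 13.8 FPM at 8 µM. At 8 µM the window thus held more marked fragments than the gene, 129 for every 100.

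The window of TCEB2, which encodes elongin B, held 1.33 and 1.80 FPM at 0 µM, 4.78 and 3.81 FPM at 4 µM, and 4.96 and 5.71 FPM at 8 µM. Both doses stood above the control, with a log2 fold change of 1.75 ± 0.26 at 8 µM (edgeR adjusted p = 7.34e-10). FOXC1, a forkhead transcription factor, had 5.83 and 5.68 FPM at 0 µM and 8.23 and 8.82 FPM at 8 µM in its window, a log2 fold change of 0.56 ± 0.18 (edgeR adjusted p = 0.00923). This call did not hold without either PDP-0 library (edgeR adjusted p = 0.0767 and 0.116). ARHGDIA, an inhibitor of small GTPases, had 2.76 and 2.08 FPM at 0 µM and 4.87 and 4.08 FPM at 8 µM in its window, and its call was lost without replicate 2 of PDP-0 (edgeR adjusted p = 0.119).

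HES4, a transcriptional repressor, was the one of the 10 highest windows that fell. Its window had 10.6 and 8.33 FPM at 0 µM, 6.13 and 7.12 FPM at 4 µM, and 5.59 and 5.22 FPM at 8 µM, a log2 fold change of -0.80 ± 0.17 at 8 µM (edgeR adjusted p = 4.16e-05). The newer annotation places an exon of ISG15, an interferon-induced ubiquitin-like protein, in this window on the opposite strand. The windows of SEPT11, a septin, and of ZNF496, C9orf69, RAB40C and CAPN15 did not pass, with log2 fold changes from -0.43 to -0.12.

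The largest called rises started from almost nothing. In the window of AC017104.2 there was 1 fragment in each PDP-0 library, 32 and 41 at 4 µM and 83 and 70 at 8 µM, or 0.102, 0.0947, 1.44, 1.84, 3.71 and 3.81 FPM. The ratio of 8 to 0 µM was 38.2, with an exact counting interval from 10.4 to 318 (95%, counting error only, as for the intervals that follow). The window of PPM1M, a protein phosphatase of the PP2C family, held 0.205 and 0.189 FPM at 0 µM, 1.08 and 1.43 FPM at 4 µM, and 3.22 and 2.72 FPM at 8 µM. Every dose stood clear of the one before it, and the log2 fold change was 3.88 ± 0.49 at 8 against 0 µM (edgeR adjusted p = 3.25e-13) and 1.24 ± 0.26 at 8 against 4 µM (adjusted p = 0.000926).

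WDR38, a WD-repeat gene that was itself too low to be tested, had 2 and 0 fragments at 0 µM, 11 and 6 at 4 µM, and 36 and 42 at 8 µM in its window. This was a ratio of 19.5 (5.21 to 164) between 8 and 0 µM. ZMYM2, a zinc finger protein of corepressor complexes, rose from 0 and 1 fragments to 20 and 25, a ratio of 22.5 (3.83 to 907).

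The other 6 windows of the 10 largest rises had 1 fragment at 0 µM in all and 28 to 33 at 8 µM. They belong to MXD4, a repressor that pairs with MAX, to SNF8, a subunit of the ESCRT-II sorting complex, and to SREBF1, the regulator of lipid synthesis genes. The remaining ones belong to RIPK1, a kinase of cell death signaling, to C19orf35 and to TRIO, an exchange factor for small GTPases. Their ratios ran from 14.0 for TRIO (2.31 to 572) to 16.5 for MXD4 (2.76 to 670). The calls of SNF8, RIPK1, C19orf35 and TRIO did not hold without 1 of the PDP-0 libraries, at edgeR adjusted p from 0.0512 to 0.0877.

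A further 10 windows had no fragment in either PDP-0 library and were called higher at 8 µM. They reached the level only through the PDP libraries and could only be higher, and the PDP-0 libraries were the shallow ones. Against the floor of 3 fragments over both PDP-0 libraries, 0.148 FPM, the window of RPS19BP1, an activator of the SIRT1 deacetylase, was at least 6.47-fold higher, with 22 and 17 fragments at 8 µM. FAM69B was at least 5.58-fold higher, with 4 and 5 fragments at 4 µM and 21 and 13 at 8 µM. HES1, a repressor in Notch signaling, was at least 5.23-fold higher with 15 and 16 fragments, and KLF6, an early-response transcription factor, at least 4.74-fold higher with 13 and 15. The others were ZNF250, UCP2, NIPA2, DUSP10, YTHDF2 and ZNF555, at least 1.90- to 4.70-fold higher.

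**Figure D4:**
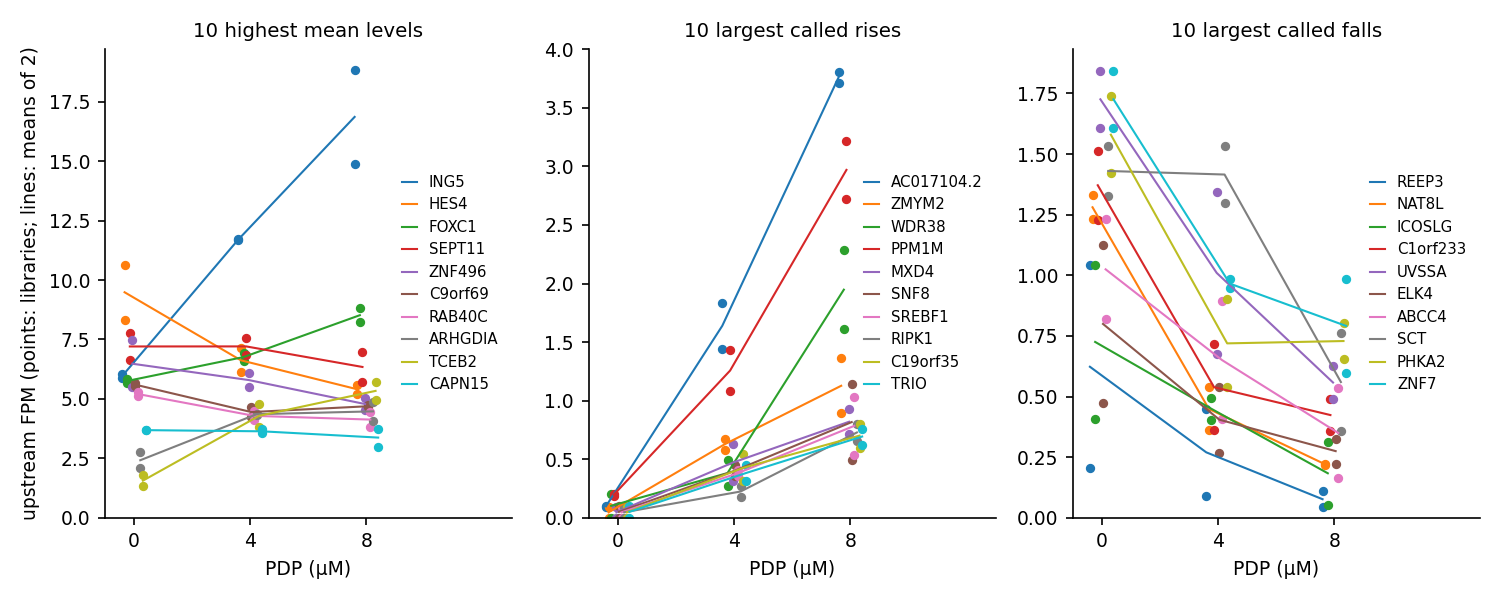
Upstream FPM (y axis, from 0, a scale of its own in each panel) at 0, 4 and 8 µM PDP (x axis, windows set slightly apart) for the 10 windows of highest mean level, the 10 largest called rises and the 10 largest called falls. Points are libraries and lines join the means of 2. ING5 climbs from about 5.95 to 16.9 FPM, while the largest rises start at or under 0.205 FPM.

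Several of the largest rises lie past the end of another gene. In 76 of the 563 windows, the gene start is within 10000 bp of the 3' end of a gene on the opposite strand that points at the window and has at least 1 FPM. That end lies on the gene side of the gene start, so some or all of the window's own gene lies between it and the window. RNA from such a facing gene that runs on past its end would be on the strand the upstream value counts. This division was made after the values were seen. Of the 76 windows, 23 were called higher at 8 µM (30.3%) and 0 lower (edgeR), and of the other 487, 67 were called higher (13.8%) and 14 lower (2.87%). Of the 76, 32 were higher and 0 lower at an unadjusted p under 0.05, and DESeq2 called 11 higher and 0 lower. The counts of the other 487 and of all rows in these 2 ways are not given here. The summed upstream value of the 76 windows was 39.3 and 32.6 FPM at 0 µM, 54.5 and 54.9 FPM at 4 µM, and 73.4 and 72.1 FPM at 8 µM, 2.02 times the control. In the other 487 windows it was 295 and 287, 321 and 329, and 362 and 382 FPM, 1.28 times the control. Of the 563 windows, those under 0.2 FPM at 0 µM were called higher in 28.9% and the rest in 9.38%. The 76 and the 487 are not split in this way here, so the part of the level in their difference was not tested.

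AC017104.2 starts 1336 bp from the end of NCL, which encodes nucleolin. The downstream value of NCL, the 4000 bp past its end, was 0.102 and 0.379 FPM at 0 µM, 1.04 and 1.12 FPM at 4 µM, and 2.55 and 1.80 FPM at 8 µM. At each step of dose it was above the step before in both libraries. Of these 4000 bp, 2664 lie in the window of AC017104.2 itself, and the same fragments may count in both values. The strand and labeling behind the downstream value were not checked here, so it may also hold unmarked fragments. For the pairs that follow no stretch is shared, and the 4000 bp lie between the facing gene's end and the window. WDR38 starts 4404 bp from the end of RPL35, a ribosomal protein gene, whose downstream value went from 0.307 and 0.473 FPM to 4.61 and 4.03 FPM at 8 µM. C19orf35 lies 8694 bp from OAZ1, the ornithine decarboxylase antizyme, with a downstream value of 0.409 and 0.0947 FPM at 0 µM and 3.40 and 2.72 FPM at 8 µM. FAM69B lies 8796 bp from SNHG7, whose downstream value went from 2.35 and 1.99 FPM to 10.8 and 11.5 FPM.

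Whether the facing gene's downstream value rose differed between pairs. P2RX2, an ATP-gated channel, faces POLE, a DNA polymerase subunit, whose downstream value was 0.921 and 1.23 FPM at 0 µM and 0.671 and 1.14 FPM at 8 µM, with overlap. TCEB2 faces SRRM2, a splicing cofactor, at 4759 bp, and the downstream value of SRRM2 was 0.102 and 0 FPM at 0 µM and 0.581 and 0.816 FPM at 8 µM, higher without overlap as in the TCEB2 window. Other windows called higher faced a gene whose downstream value did not rise clearly. FDPS faces RUSC1-AS1, with 0 FPM in all 6 libraries. MAT2A faces GGCX, with 0 and 0 FPM at 0 µM and 0.0447 and 0 FPM at 8 µM. ACPT faces C19orf48, with 0.819 and 0.757 FPM at 0 µM and 0.671 and 1.03 FPM at 8 µM, with overlap. The pairs given are examples, and pairs of either kind were not counted. The part of the facing genes in the rises was not tested. FAHD2A and FAHD2B, both called higher, are near-identical copies of each other and their reads are uncertain.

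**Figure D5:**
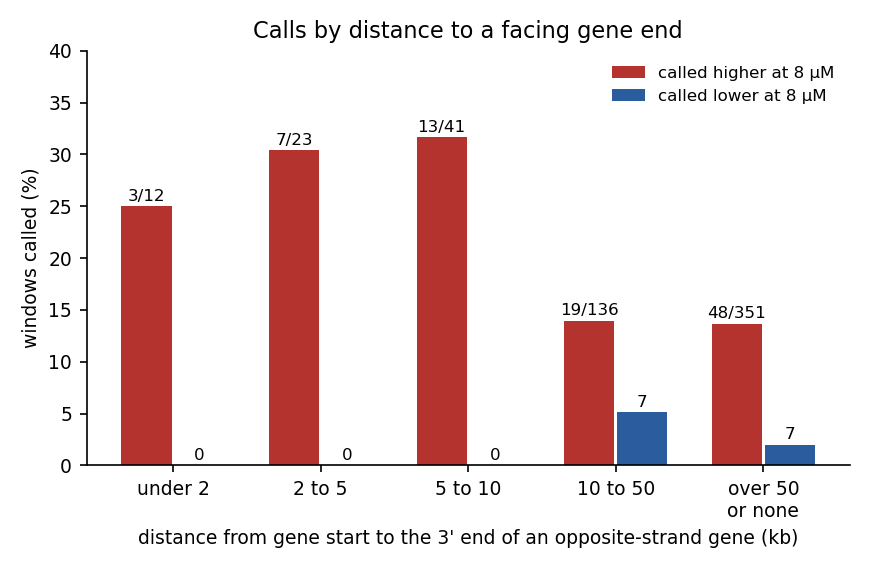
Share of windows called higher or lower at 8 against 0 µM PDP (y axis, percent, edgeR adjusted p under 0.05) by the distance from the gene start to the 3' end of an opposite-strand gene of at least 1 FPM that points at the window (x axis, kb). Numbers over the bars are windows called and, after the slash, windows in the class. Within 10 kb 23 of 76 windows were called higher and 0 lower.

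Falls were fewer and lay in windows with signal at 0 µM. The rule fixed part of this, as a window with no fragment at 0 µM cannot be called lower. The 190 windows under 0.2 FPM at 0 µM reached the level through the PDP libraries and gave 0 lower calls. The window of NAT8L, the enzyme that makes N-acetylaspartate, had 1.33 and 1.23 FPM at 0 µM, 0.360 and 0.537 FPM at 4 µM, and 0.224 and 0.218 FPM at 8 µM. It fell at both doses without overlap, with a log2 fold change of -2.50 ± 0.54 at 8 µM (edgeR adjusted p = 6.76e-05). UVSSA, a factor of transcription-coupled repair, had 1.84 and 1.61 FPM at 0 µM, 0.676 and 1.34 FPM at 4 µM, and 0.626 and 0.490 FPM at 8 µM, a log2 fold change of -1.60 ± 0.41 (edgeR adjusted p = 0.000883). Both calls held without any 1 library.

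The other 8 of the 10 largest falls lost their call when 1 library was left out. REEP3, of the endoplasmic reticulum, had the largest, from 2 and 11 fragments at 0 µM to 1 and 2 at 8 µM, a ratio of 0.115 (0.0211 to 0.419). Most of its control signal came from 1 library, and without it the edgeR adjusted p was 0.579. SCT had 1.54 and 1.33 FPM at 0 µM, 1.53 and 1.30 FPM at 4 µM, and 0.358 and 0.762 FPM at 8 µM, so that the fall was seen only at the higher dose, and without replicate 1 of PDP-8 the adjusted p was 0.209. ICOSLG, C1orf233, ELK4, ABCC4, PHKA2 and ZNF7 had log2 fold changes from -1.87 to -1.08. RNH1, an inhibitor of ribonucleases, TUBB4B, a tubulin, and C9orf163 were the remaining windows called lower besides HES4.

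Set against the marked RNA of the gene, the ratio of upstream to marked fragments was called higher in more cases than the windows themselves. For 540 windows whose gene had at least 0.2 FPM of marked RNA, edgeR tested the upstream-to-marked ratio within each library. It was called higher in 42 (7.78%, all rows 3.64%) and lower in 1 (0.185%, all rows 6.40%) at 4 µM, and higher in 132 (24.4%, all rows 10.5%) and lower in 8 (1.48%, all rows 10.8%) at 8 µM. The median log2 change at 8 µM was 0.91, where that of all rows was 0.00. In 84 of the 132 the gene's own marked RNA was called lower, and in 70 the window itself was called higher. The level shaped these counts too. Among the windows that reached 0.2 FPM at 0 µM by themselves, 69 of 361 were called higher and 8 lower, with a median of 0.45.

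The windows and the marked RNA of their genes did not move as one. Marked RNA at 8 against 0 µM was called lower in 223 of the 540 genes (41.3%, all rows 23.3%) and higher in 54 (10.0%, all rows 9.98%). Among the 84 windows called higher whose gene could be tested, the marked RNA of the gene was called lower in 32, higher in 10 and not called in 42. HES1 and KLF6 were among those in which both rose, with log2 fold changes of 1.12 and 0.71 in marked RNA. MXD4, SREBF1, RPS19BP1 and FAM69B were among those in which marked RNA fell, by 0.89, 0.62, 1.57 and 1.32 on the log2 scale. NAT8L fell in both, while the marked RNA of REEP3 rose by 0.67.

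Against total RNA of the gene, tested in 544 windows, the ratio was called higher in 31 (5.70%, all rows 1.86%) and lower in 20 (3.68%, all rows 17.6%) at 4 µM. At 8 µM it was called higher in 68 (12.5%, all rows 4.50%) and lower in 25 (4.60%, all rows 22.0%), with a median of 0.42 where all rows had -0.49. Among the windows that reached 0.2 FPM at 0 µM by themselves, 27 of 363 were called higher and 25 lower, and the median was -0.07. Of windows with fragments at 0 µM, the largest rises were those of MXD4, with a log2 change of 4.11 ± 0.90, P2RX2, SNF8, SREBF1 and PPM1M, and the largest falls those of REEP3, at -3.51 ± 0.80, POMP, FOXN2, NAT8L and ABCC4. POMP, a proteasome assembly factor, had all of its 6 control fragments in 1 library, and without it the change turned to 2.73.

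Total RNA of the genes rested on the scaling. With the deposited library sizes, 269 of 544 genes were called higher at 8 against 0 µM (49.4%, all rows 44.4%) and 66 lower (12.1%, all rows 6.92%), with a median log2 fold change of 0.20 below the 0.37 of all rows. With TMM factors the same genes gave 125 higher and 225 lower, and the median of all rows moved to 0.04. For the upstream value TMM moved the median of all rows from -0.14 to 0.08 and gave 123 windows called higher and 8 lower. Shares of all rows called with TMM are not given here for either value, so these TMM counts cannot be set against them.

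By function the windows were few per group. Among immediate early and short-lived regulators, 2 of 5 windows were called higher at 8 µM and 0 lower, where 6.16% of all rows were called higher. These were HES1 and KLF6, which had no fragment at 0 µM, so that they reached the level through the PDP libraries and could only be higher. At edgeR's unadjusted p the count was also 2 higher and 0 lower, and DESeq2 called none of the 5. The windows of KLF10, SPRY2 and ARRDC3 did not pass. Among 21 zinc finger (ZNF) genes, 4 were called higher, a share near the 16.0% of all 563 windows, of which ZNF250 and ZNF555 had no control fragment, and 1 lower, ZNF7. DESeq2 called 1 of the 21 higher and 0 lower. Of the ribosomal protein genes with a window, RPS21 had 4.20 and 3.03 FPM at 0 µM and 3.35 and 2.94 FPM at 8 µM, and RPL8 3.99 and 3.31 FPM and 2.46 and 2.56 FPM, neither of which passed.

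None of the 5 windows of splicing regulators, which include those of SRSF1, HNRNPAB, HNRNPF and HNRNPL, nor of the 5 of translation initiation factors and their regulators (among them EIF4A3 and EIF3A) was called by edgeR or DESeq2, and 0 of the 10 had an unadjusted p under 0.05 in edgeR. Their median log2 fold changes were 0.80 and 0.65 at 8 µM. CCND1, which encodes cyclin D1, was the one gene with a promoter known for its G-quadruplex, and the one cyclin or cyclin-dependent kinase, whose window was at the level. It had 1 fragment in each PDP-0 library, 6 and 6 at 4 µM, and 6 and 7 at 8 µM, a ratio of 3.24 (0.735 to 29.6) that did not pass. HOXD13, the one HOX gene, had 0.307 and 0.189 FPM at 0 µM and 0.626 and 0.925 FPM at 8 µM (edgeR adjusted p = 0.0530).

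The machinery that ends and degrades upstream RNA was measured through total RNA of its genes. The list held 61 genes of the exosome, its adaptors, the Integrator and the 3' end complexes, with cap-binding genes and factors of polymerase pausing and elongation. Of these, 40 were called higher at 8 against 0 µM (all rows 44.4%) and 6 lower (all rows 6.92%). Their median log2 fold change was 0.40 beside the 0.37 of all rows. With TMM factors, chosen here after seeing the data, 23 were higher and 19 lower, with a median of 0.07. No share of all rows with TMM is given beside these counts. Marked RNA of the same 61 genes was called higher in 6 and lower in 19 (all rows 9.98% and 23.3%), with a median of -0.10 that TMM turned to 0.02. The 6 that fell in total RNA, which were also called lower with TMM, include EXOSC6, an exosome subunit, at -0.43 ± 0.060, PABPN1, the nuclear poly(A)-binding protein, at -0.41 ± 0.046, and INTS1, an Integrator subunit, at -0.27 ± 0.041. The pausing factors NELFE, at -0.32 ± 0.073, and NELFB, at -0.30 ± 0.053, were also among them. Other genes of the same complexes were among the 40 called higher. Examples are EXOSC8 at 1.03 ± 0.17, INTS12 at 1.00 ± 0.19 and NELFCD at 0.40 ± 0.072. With TMM factors EXOSC8 and INTS12 were still called higher and NELFCD was not called. RBM7, an adaptor of the exosome, rose by 1.23 ± 0.25 from 1.64 and 1.89 FPM to 3.62 and 4.79 FPM. Windows of 3 of these genes were at the level, those of ZC3H18, XRN2 and WDR33. None was called by edgeR or DESeq2, and 1 had an unadjusted p under 0.05 in edgeR.

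Median changes differed by motif count, while the share called higher did not follow it. This is a description of windows that also differ in base composition and in level. The 135 windows without a match had a median log2 fold change of 1.05 at 8 µM, with 24 called higher and 1 lower. The 211 windows with 1 or 2 matches had 0.69, with 31 higher and 3 lower, and the 217 with 3 or more had 0.44, with 35 higher and 10 lower. The shares called higher were 17.8%, 14.7% and 16.1%. The 3 classes summed to 53.2, 130 and 143 FPM at 0 µM, and the median change also went down with level, from 0.88 in windows under 0.5 FPM to -0.08 at 1 FPM or more. The 14 windows called lower had a median GC content of 55.6%, the 90 called higher 50.1% and the 459 not called 50.5%. Windows with a newer opposite-strand exon gave 26 higher and 5 lower of 171, and those without gave 64 higher and 9 lower of 392.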

How the data were processed

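The deposited tables hold, per gene of GENCODE v19, fragment counts for total, T-to-C mismatch, downstream and upstream fragments, and FPM values that the authors made as RPM are made, by scaling counts to all fragments of the library. The authors trimmed reads with cutadapt 1.18, mapped them to GRCh37 with HISAT2 2.1.0 and left out bases of quality under 41. The counting program is not given in the sources used for this work. Depth is given with the results. The isolated windows, the gene lists and the tests were chosen with earlier results of these data known.

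Counts were tested with edgeR 4.0.16 (quasi-likelihood, library sizes as deposited, one model over the 6 libraries, Benjamini-Hochberg over all rows fitted). Rows needed a mean of 0.2 FPM. A ratio was tested as the interaction of kind of count and dose, with library as a block. SE is the absolute log2 fold change over the root of F. Alternatives were TMM, DESeq2 1.42.0, limma 3.58.1 with pseudocounts of 0.1, 0.01 and 1, other filters and other rules for the windows. The edgeR fits of upstream counts, total counts and the upstream-to-total ratio were tested on simulated data with a fixed spread, and the other steps were not. Windows named are the 10 of highest level, the 10 largest called rises and falls without overlap of libraries, the 5 and 5 largest for the ratio to total, up to 4 per gene list, and the 2 on either side of the level. Others were chosen after their values were seen. MCF7 libraries and the conversion and half-life tables are not analysed here. Some results of the gene lists are not reported here.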

Additional observations from a re-analysis of the deposited data

How the results depend on the processing

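Counts of windows called, higher and lower together, depended on the setting, and the causes were not tested beyond what each setting leaves out. For upstream counts at 4 against 0 µM, where 44 were called, DESeq2 gave 10, limma with 0.1 FPM added 68, a fit on all rows with a fragment 21, a minimum of 0.5 FPM 28 of 199 windows, a minimum of 1 FPM 17 of 80, no other gene within 10000 bp 23 of 401, and no other gene on the same strand 344 of 2702. At 8 against 0 µM, where 104 were called, these gave, without limma, 30, 66, 63, 27, 59 and 567. At 8 against 4 µM, where 6 were called, DESeq2 gave 0, limma 0 with 0.1 and 0.01 FPM added and 3 with 1 FPM added, the same-strand rule 13, and the windows that face no gene end 2, a setting chosen after seeing the data. For the ratio to total at 4 µM (51 called), limma gave 15, all rows with a fragment 3, a minimum of 1 FPM 26, the 10000 bp rule 32 and the same-strand rule 472. At 8 µM (93 called) these gave, without limma, 32, 28, 59 and 633. For the ratio to marked fragments at 4 µM (43 called), limma gave 8, all rows with a fragment 10, a minimum of 1 FPM 23, the 10000 bp rule 24 and the same-strand rule 222. At 8 µM (140 called) these gave, without limma, 51, 29, 89 and 486, and a minimum of 0.5 FPM 75. For total counts (335 called) the same-strand rule gave 1597, and for marked counts (277 called) 1047 and DESeq2 180. Smaller sets of windows and rules that take in more windows bring counts down or up by themselves.

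Leaving out each library in turn gave 11 to 38 calls for upstream counts at 4 against 0 µM, 56 to 100 at 8 against 0 µM and 1 to 3 at 8 against 4 µM. The ratio to total gave 20 to 45 at 4 µM and 54 to 90 at 8 µM, and the ratio to marked fragments 14 to 35 and 53 to 135. Total counts gave 275 to 345 and marked counts 206 to 283. The lowest counts at 8 against 0 µM came without a PDP-0 library, the shallow group. Of 29 named windows called at 8 against 0 µM, 16 lost the call without some library.

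The windows' median log2 fold change turned sign in upstream counts at a minimum of 1 FPM (-0.0071 at 4 µM and -0.083 at 8 µM) and under the same-strand rule (-0.072 and -0.0070). It turned in the ratio to total at 4 µM with minima of 0.5 and 1 FPM (-0.069 and -0.14) and at 8 µM with 1 FPM (-0.11), and under the same-strand rule (-0.39 and -0.37). In total counts it turned with TMM (-0.13) and DESeq2 (-0.15). The ratio to total of POMP, left without 1 library each, ran from -3.03 to 2.73, the latter without replicate 2 of PDP-0.

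No pairing of the libraries by replicate number was seen, as the differences between replicates 1 and 2 correlated at -0.023, 0.018 and -0.0057 between doses. Counting error in rows with few fragments brings such a correlation toward 0, so pairing is not excluded. A replicate block gave 44, 106 and 5 calls in the upstream counts at 4 and 8 against 0 µM and 8 against 4 µM.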
